A study of Homo sapiens with 3 samples.

Results

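The metallothionein and zinc transporter genes were examined in Hep-G2, an established human hepatoma cell line, in 3 libraries of DNase-treated total RNA taken at passage 21. The library labelled sh_Neg carried a control short hairpin RNA (shRNA), and the libraries labelled sh_#2 and sh_#7 carried different shRNAs against FTO, an RNA demethylase. Per the series design, knockdown was stronger in sh_#7 than in sh_#2. All 3 lines were grown in the same serum-containing medium, and the labels do not say whether a line is 1 clone or a pool of transduced cells. Each line gave 1 library, so there is no replicate check on any difference and no test. An effect of FTO and an effect of the individual line cannot be told apart.

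The genes were taken by symbol from the authors' table: MT2A, every symbol made of MT1 and letters, and the numbered SLC30A and SLC39A genes. This gave 37 of 21572 genes, of which 13 were metallothioneins, 10 were SLC30A genes and 14 were SLC39A genes. Levels are FPKM, a fragment number scaled to transcript length and to the mapped total. Fold changes were taken where the 3 libraries averaged 1 FPKM or more, which kept 25 of the 37 (7 metallothioneins, 7 SLC30A and 11 SLC39A genes) and 11069 genes in all.

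Metallothioneins are small cysteine-rich proteins that bind zinc, copper and cadmium in the cytosol, and the liver is a main site of their synthesis. Zinc entering the cytosol activates the transcription factor MTF1, which binds metal response elements in the promoters of metallothionein genes and of the zinc exporter gene SLC30A1. SLC30A proteins (ZnT) move zinc out of the cytosol, either across the plasma membrane or into organelles, and SLC39A proteins (ZIP) move it into the cytosol.

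The metallothionein genes lie together on chromosome 16 and are close copies of each other, which bears on how reads are divided among them. The coding sequences of MT2A and of MT1X and MT1F, which among the copies above 1 FPKM in every library lay furthest above the control in sh_#7, are shown with capitals at each base that differs from MT2A. They are read 5′ to 3′ from GENCODE 29 transcripts.

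MT2A: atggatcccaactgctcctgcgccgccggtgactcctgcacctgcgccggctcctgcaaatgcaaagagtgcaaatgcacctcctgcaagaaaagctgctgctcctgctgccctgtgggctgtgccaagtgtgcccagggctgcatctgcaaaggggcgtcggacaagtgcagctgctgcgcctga

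MT1X: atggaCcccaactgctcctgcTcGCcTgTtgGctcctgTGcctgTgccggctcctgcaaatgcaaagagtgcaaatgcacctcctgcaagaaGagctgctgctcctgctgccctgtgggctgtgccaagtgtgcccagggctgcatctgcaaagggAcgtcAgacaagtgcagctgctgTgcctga

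MT1F: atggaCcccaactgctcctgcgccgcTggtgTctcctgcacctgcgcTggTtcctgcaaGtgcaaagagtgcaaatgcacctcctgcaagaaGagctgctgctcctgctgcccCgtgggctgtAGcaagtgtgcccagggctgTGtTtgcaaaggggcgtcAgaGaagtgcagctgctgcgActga

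MT1X differed from MT2A at 14 of 186 coding bases and MT1F at 16. Among the 8 metallothionein genes with a coding sequence of that length, the 28 pairs were between 88.7% and 94.6% identical. All of these carried 20 cysteine codons among 61 codons before the stop except MT1B, with 21. MT1G encodes 1 residue more and was not aligned. Of all windows of 50 bases along a whole transcript, coding part included, between 0% (MT1B) and 19.9% (MT1G) occurred unchanged in another metallothionein gene. The part outside the coding sequence was not compared on its own. For MT1X this share was 14.7%, for MT1F 3.59% and for MT2A 2.17%. Neither the labels nor the processing notes give the read length or the treatment of reads that match several copies, so the division among copies is uncertain, most of all for MT1G and MT1X, and the summed level is given as well.

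Promoters of members are shown because MTF1 acts on the metallothioneins and on SLC30A1 through them. They cover the 250 bases before the start site in RefSeq (GRCh38.p14), 5′ to 3′ on the gene's strand. Capitals mark the core of the metal response element, TGCACNC or TGCGCNC on the strand shown or GNGTGCA or GNGCGCA for the other strand. MT2A (chr16:56608334-56608583, plus strand) and MT1X (chr16:56682220-56682469, plus strand) are copies with a sizeable level, and MT1H (chr16:56669564-56669813, plus strand) is a copy at or near 0 in all 3 libraries. SLC30A1 (chr1:211579162-211579411, minus strand) and SLC30A3 (chr2:27275347-27275596, minus strand) are exporters that were higher in sh_#7.

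MT2A promoter: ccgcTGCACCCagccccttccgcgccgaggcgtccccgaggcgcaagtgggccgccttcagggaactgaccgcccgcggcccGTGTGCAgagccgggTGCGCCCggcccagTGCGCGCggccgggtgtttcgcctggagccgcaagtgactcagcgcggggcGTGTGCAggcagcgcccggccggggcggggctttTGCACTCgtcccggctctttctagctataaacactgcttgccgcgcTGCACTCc

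MT1X promoter: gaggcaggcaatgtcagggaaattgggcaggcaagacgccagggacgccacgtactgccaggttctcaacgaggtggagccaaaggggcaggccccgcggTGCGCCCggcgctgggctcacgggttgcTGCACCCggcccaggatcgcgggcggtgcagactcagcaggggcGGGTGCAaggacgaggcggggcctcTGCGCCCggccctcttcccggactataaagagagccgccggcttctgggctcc

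MT1H promoter: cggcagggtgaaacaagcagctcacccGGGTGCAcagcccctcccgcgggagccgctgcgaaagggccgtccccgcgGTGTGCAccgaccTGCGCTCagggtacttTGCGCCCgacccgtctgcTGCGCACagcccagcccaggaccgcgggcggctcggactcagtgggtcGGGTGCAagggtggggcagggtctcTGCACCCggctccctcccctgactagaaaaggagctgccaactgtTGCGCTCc

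SLC30A1 promoter: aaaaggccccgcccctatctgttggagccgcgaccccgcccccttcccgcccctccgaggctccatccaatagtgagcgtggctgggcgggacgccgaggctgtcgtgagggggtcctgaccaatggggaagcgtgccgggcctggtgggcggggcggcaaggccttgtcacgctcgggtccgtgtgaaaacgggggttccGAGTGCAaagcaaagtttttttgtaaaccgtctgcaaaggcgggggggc

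SLC30A3 promoter: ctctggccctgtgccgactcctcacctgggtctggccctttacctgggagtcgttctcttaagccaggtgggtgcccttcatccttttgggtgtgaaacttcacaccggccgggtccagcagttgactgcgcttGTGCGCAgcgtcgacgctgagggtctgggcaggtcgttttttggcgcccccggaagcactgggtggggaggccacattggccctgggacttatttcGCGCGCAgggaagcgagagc

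The MT2A window held 7 matches, MT1X 4 and MT1H 8, and MT1B, which is not shown, held 3. Of 35116 RefSeq promoter windows of this length, 24.8% held at least 1 match and 6.48% at least 2. At least 3 were held by 1.58% and at least 8 by 0.0171%. Windows of the other metallothionein genes were not analysed here. The SLC30A1 window held 1 match, 49 bases before the start. Of the 2 SLC30A3 windows, the one shown held 2 matches and the other held 1. Which of these start sites the cells use was not examined. Over both transporter families, 6 of 11 SLC30A windows (9 genes) and 5 of 19 SLC39A windows (12 genes) held a match. A match describes the sequence and is not a measured binding site: MT1H, with the most matches, was listed at 0 in both knockdown lines.

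**Figure D1:**
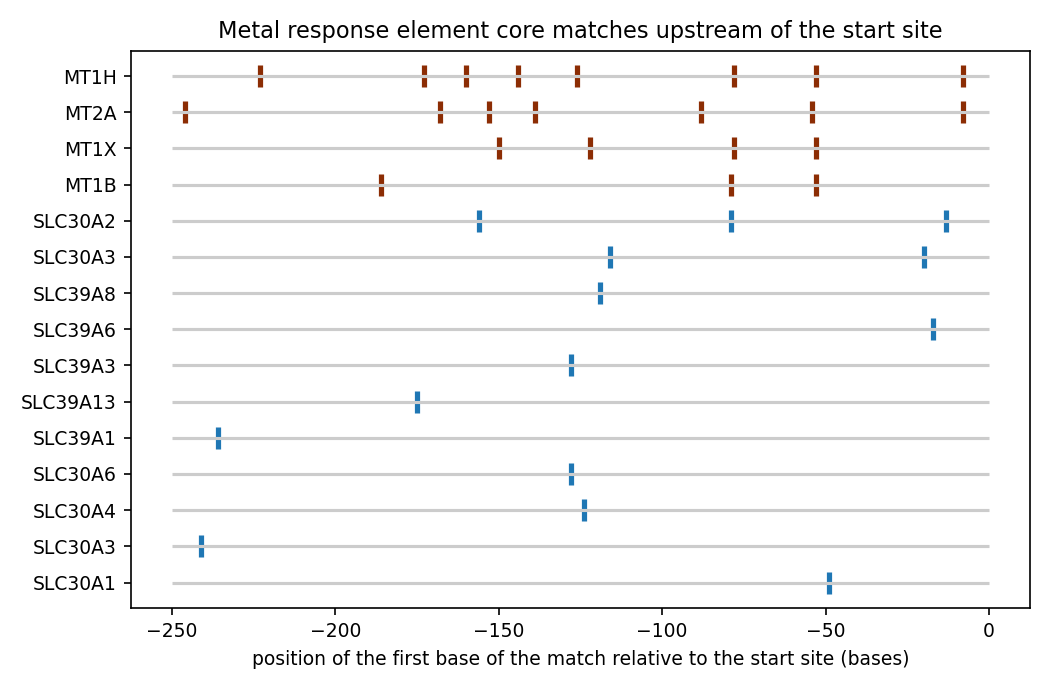
Matches to the metal response element core in the 250 bases before the start site, with 1 row for each promoter window that held a match and the position in bases on the horizontal axis. Metallothionein windows (brown, top 4 rows) hold 3 to 8 matches and transporter windows (blue) hold 1 to 3.

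FTO itself was at 9.02 FPKM in sh_Neg, 5.29 FPKM in sh_#2 and 2.55 FPKM in sh_#7, in the order the series design gives. That is 58.6% of the control in sh_#2 (95% interval 46.7 to 73.5) and 28.2% in sh_#7 (20.8 to 37.8). These and all later intervals are exact (Clopper-Pearson) on estimated fragment numbers and cover counting error alone, not the spread between cultures. About 47.3 M (mega) fragments were estimated for sh_Neg, 47.9 M for sh_#2 and 46.7 M for sh_#7. As a check of the labelled cell type, all 10 hepatocyte markers were above 1 FPKM in every library, and their summed level was 25010 FPKM in sh_Neg, 16979 FPKM in sh_#2 and 7783 FPKM in sh_#7. Their lowest member was at 61.1, 26.6 and 3.43 FPKM. All 10 were lower in sh_#7 than in the control, 6 of them by at least 2-fold. In bulk RNA, fewer cells of a type and less RNA per cell cannot be told apart, and the part of this marker difference in the results that follow was not tested. Endothelial, pancreatic islet and kidney markers summed to at most 0.196 FPKM in any library. Of 8 fibroblast and stellate cell markers, 5 were listed at 0 in all libraries, among them COL1A2, COL3A1 and DCN. The summed level was 35.4 to 52.7 FPKM, most of it ACTA2, at 40.2 FPKM in sh_Neg, 33.6 FPKM in sh_#2 and 51.5 FPKM in sh_#7. PDGFRB was at 3.76, 1.69 and 0.616 FPKM in that order, and COL1A1 at 0.0149, 0.102 and 0.578 FPKM. Of 7 blood and immune markers, 4 were listed at 0, among them PTPRC, and the sum was 24.0 to 40.3 FPKM. Nearly all of that sum was CD68, at 39.3 FPKM in sh_Neg, 30.8 FPKM in sh_#2 and 23.3 FPKM in sh_#7.

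Metallothionein mRNA was higher in sh_#7 than in the control for 6 of the 7 genes that could be compared. MT1X, MT1F and MT1M lay furthest above the control, of which MT1M was compared only because of its sh_#7 level. Of all compared genes, 67.2% lay above the control in sh_#7. In sh_#2 the same family differed little as a whole, with MT1X above the control and MT1G below it. The SLC39A importers lay mostly below the control, 8 of 11 in each line where 32.8% of all compared genes did, led by SLC39A14 and SLC39A7 in sh_#7. Among the SLC30A genes, SLC30A3 was 12.3-fold above the control in sh_#7, and SLC30A10 lay on opposite sides of the control in the 2 lines.

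**Figure D2:**
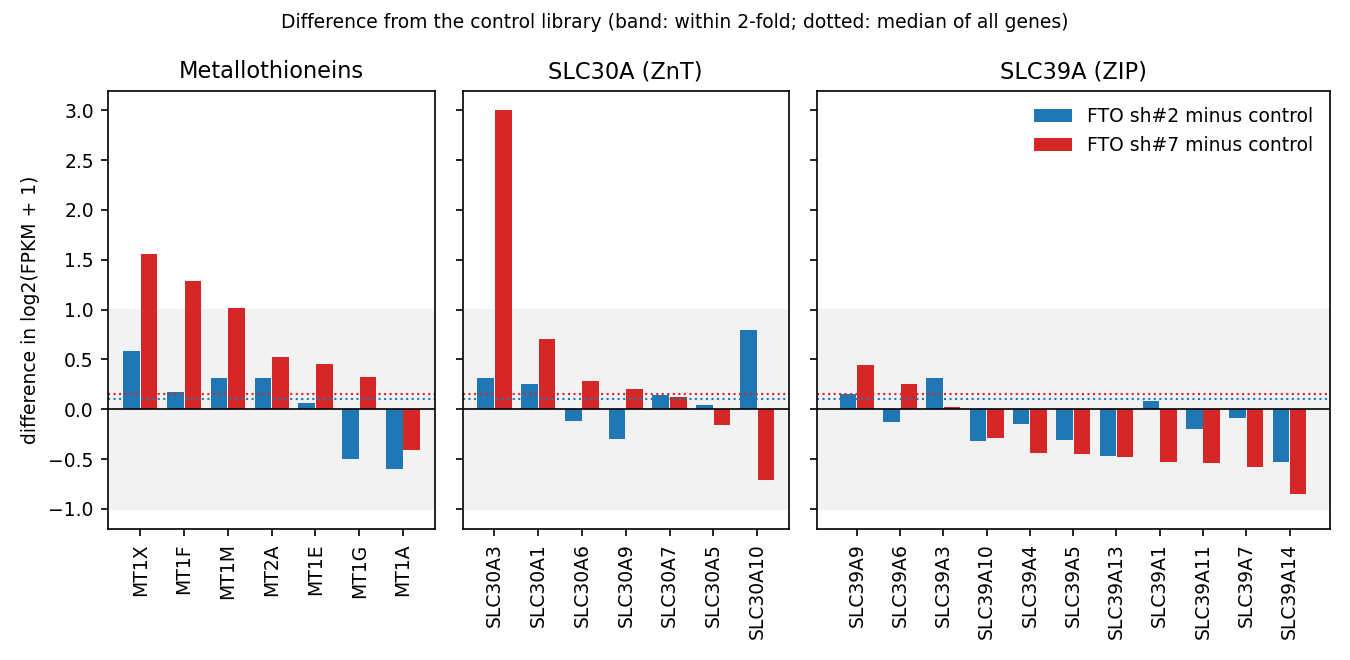
Difference of each line from the control library in log2(FPKM + 1) for the 25 compared genes, in 3 panels by family. Bars are single libraries without error, blue for sh_#2 and red for sh_#7; the grey band marks differences within 2-fold and dotted lines mark the median of all 11069 genes (0.10 and 0.16). MT1X, MT1F, MT1M and SLC30A3 leave the band upwards in sh_#7, and no gene leaves it in sh_#2.

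In counts, a gene was called where log2(FPKM + 1) differed by at least 2-fold, a size that understates the change of low genes. In sh_#7 against the control, 4 of 25 genes were called higher (MT1X, MT1F, MT1M and SLC30A3), where 2.35% of all compared genes were, and 0 were called lower, where 2.48% were. MT1M was compared only because of its sh_#7 level, and without it 3 genes were called higher. In sh_#2 against the control, 0 of 25 were called higher and 0 lower, beside 0.506% and 0.723% of all genes. In sh_#7 against sh_#2, MT1F and SLC30A3 were called higher and SLC30A10 lower, beside 1.45% and 1.52%. Both lines share the control library. There is no test behind these counts, and with so few genes a share of 0 is close to what the background gives.

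At 1.5-fold, 5 of 25 were higher in sh_#7 than in the control (SLC30A1 in addition) and 2 were lower (SLC39A14 and SLC30A10), beside 9.61% and 6.18% of all genes. In sh_#2, MT1X and SLC30A10 were higher and MT1A was lower, beside 2.67% and 2.72%. With median-of-ratios scaling of the libraries, the log2 differences of SLC30A1 in sh_#7 and MT1X in sh_#2 were 0.54 and 0.47, both short of 1.5-fold. The same scaling brought further genes past 1.5-fold lower, among them SLC39A7 in sh_#7 at -0.76. MT1A was compared because of its sh_Neg level, and its counting interval in sh_#2, 15.9% to 120% of the control, included no change. Between the lines, 5 were higher in sh_#7 (MT1F, MT1X, MT1G, MT1M and SLC30A3) and 2 were lower (SLC30A10 and SLC39A1), beside 5.14% and 4.55%. Here too, MT1M was compared only because of its sh_#7 level.

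MT2A, the most abundant of the family, was at 382 FPKM in sh_Neg, 474 FPKM in sh_#2 and 549 FPKM in sh_#7. It made up 67.7% of the summed metallothionein level in the control, 72.5% in sh_#2 and 62.1% in sh_#7. Its level was 124% of the control in sh_#2 (119% to 129.7%) and 144% in sh_#7 (138% to 150.2%). MT2A was thus highest in sh_#7 and lowest in the control, with sh_#2 between them. Of all compared genes 37.9% were in that order, beside 5 of the 7 metallothioneins and 8 of the 25 members.

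MT1X was at 24.7 FPKM in sh_Neg, 37.5 FPKM in sh_#2 and 74.5 FPKM in sh_#7. Its log2(FPKM + 1) difference from the control was 0.59 in sh_#2 and 1.56 in sh_#7, in each line the furthest above the control of the 7 compared copies. As a ratio of FPKM, that is 1.52-fold (1.31 to 1.78) and 3.02-fold (2.63 to 3.47). In the order of all 11069 compared genes, MT1X stood at rank 70 from the top in sh_#7 and at rank 292 in sh_#2.

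MT1F was at 48.6 FPKM in sh_Neg, 54.8 FPKM in sh_#2 and 120.3 FPKM in sh_#7. The control and sh_#2 lay close together, at a ratio of 1.13 (0.947 to 1.34), and sh_#7 stood apart at 2.47-fold the control (2.13 to 2.88). In sh_#7 MT1F lay above MT1G, and in the control MT1G lay above MT1F.

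MT1G was at 76.5 FPKM in sh_Neg, 53.8 FPKM in sh_#2 and 95.7 FPKM in sh_#7. It was the one abundant copy with sh_#2 below the control, at 70.3% (62.6 to 79.0), while sh_#7 was at 1.25-fold (1.13 to 1.38). With median-of-ratios scaling the log2 difference of MT1G in sh_#7 went from 0.32 to 0.13, below its counting interval. The median of all genes went from 0.16 to -0.01. MT1E was at 30.5 FPKM in sh_Neg, 32.0 FPKM in sh_#2 and 42.2 FPKM in sh_#7. For MT1E the control and sh_#2 did not differ beyond counting error (ratio 1.05, 0.849 to 1.30, with the direction turning under either other scaling of the libraries), and sh_#7 was at 1.38-fold (1.13 to 1.69).

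The remaining compared copies were near the minimum level. MT1M was at 0.458 FPKM in sh_Neg, 0.809 FPKM in sh_#2 and 1.95 FPKM in sh_#7, and it was compared because of its sh_#7 level, so that it had to differ. Its ratio of sh_#7 to control was 4.25 (2.36 to 8.70) on about 13.4 and 56.2 estimated fragments, and its log2(FPKM + 1) difference of 1.01 was just past 2-fold. With median-of-ratios scaling of the libraries that difference was 0.93, and with upper-quartile scaling 0.96, both short of 2-fold. MT1A was at 1.70 FPKM in sh_Neg, 0.777 FPKM in sh_#2 and 1.03 FPKM in sh_#7, and it was compared because of its sh_Neg level. It was the one compared copy below the control in both lines, but with intervals of 15.9% to 120% in sh_#2 and 23.4% to 148% in sh_#7 the direction was not detectable at this depth.

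Of the other 6 metallothionein genes, MT1B was at 0.247 FPKM in sh_Neg and 0.246 FPKM in sh_#7 and listed at 0 in sh_#2. MT1H was at 0.225 FPKM in sh_Neg and listed at 0 in the knockdown lines. The pseudogene MT1DP was at 0.137 FPKM in sh_Neg and 0.139 FPKM in sh_#7 and listed at 0 in sh_#2. The pseudogenes MT1IP, MT1JP and MT1L were listed at 0 throughout. The MT1B and MT1H values correspond to only about 1.62 to 1.99 estimated fragments, and no difference can be read from them.

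**Figure D3:**
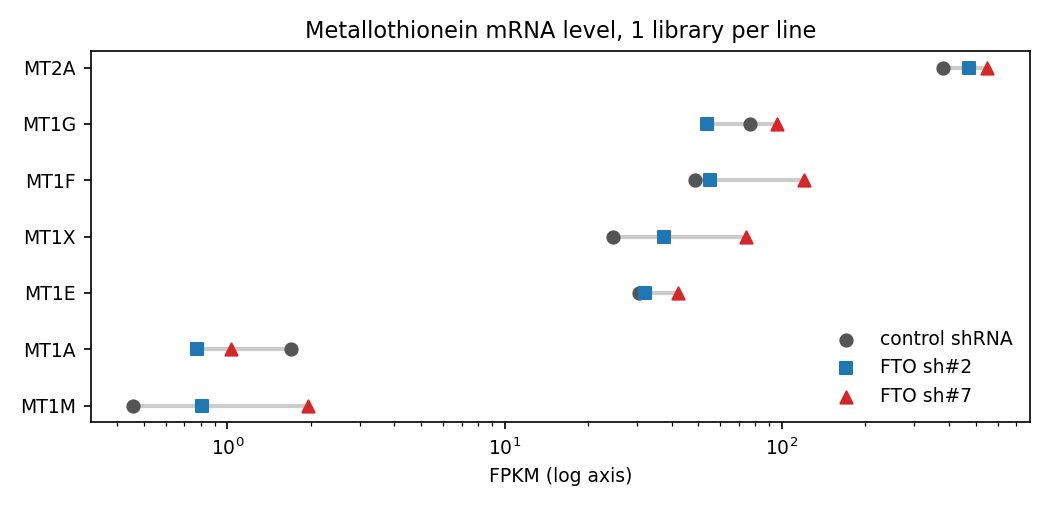
FPKM of the 7 compared metallothionein genes on a log axis, with 1 point per library (grey circle sh_Neg, blue square sh_#2, red triangle sh_#7) and a grey line over the range. The sh_#7 point is the highest for every gene except MT1A, and MT2A lies between 382 and 549 FPKM.

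Summed over the 7 copies, metallothionein mRNA was at 564 FPKM in sh_Neg, 654 FPKM in sh_#2 and 885 FPKM in sh_#7. The log2 difference from the control was 0.21 in sh_#2 and 0.65 in sh_#7, where the median of all genes lay at 0.10 and 0.16. Without MT2A the sum was 182 FPKM in sh_Neg, 179.8 FPKM in sh_#2 and 336 FPKM in sh_#7, a ratio to the control of 0.985 in sh_#2 and 1.84 in sh_#7. The median difference of the 7 copies, taken above that of all genes, was 0.37 in sh_#7 and 0.07 in sh_#2. At a minimum of 5 FPKM, which leaves out MT1A and MT1M, it was 0.38 and 0.06.

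Genes around the metallothionein cluster, whose order was taken from RefSeq, did not share one direction. Of the 6 nearest compared genes on each side, 2 were called higher (CES1 and CPNE2) and 1 lower (PLLP) in sh_#7, beside 2.35% and 2.48% of all compared genes, and the median log2 difference of the 12 was 0.06. In sh_#2 CES1 was called higher too, at a log2 difference of 1.66, and the median of the 12 was 0.05. The adjoining genes on one side, BBS2 and OGFOD1, differed by -0.11 and 0.21 in sh_#7, and NUP93 on the other side by -0.10. MT3 and MT4, the metallothionein genes of brain and squamous epithelium, are in the same stretch and were listed at 0 in all 3 libraries.

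Among exporters, SLC30A1, the ZnT1 protein of the plasma membrane and an established MTF1 target, was at 5.66 FPKM in sh_Neg, 6.94 FPKM in sh_#2 and 9.87 FPKM in sh_#7. It was 1.23-fold (1.14 to 1.32) and 1.74-fold (1.63 to 1.86) the control in the respective lines, with sh_#2 between the others. As with MT2A and MT1X, sh_#7 was the highest library and sh_Neg the lowest, an order found in 37.9% of all compared genes.

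SLC30A3, the ZnT3 protein that loads zinc into synaptic vesicles of neurons, was at 1.62 FPKM in sh_Neg, 2.25 FPKM in sh_#2 and 19.9 FPKM in sh_#7. The ratio of sh_#7 to control was 12.3 (10.5 to 14.6), and that of sh_#2 to control 1.39 (1.13 to 1.72). By its log2(FPKM + 1) difference it stood at rank 5 from the top of all compared genes in sh_#7, and at rank 1907 in sh_#2. It made up 2.57% of the summed SLC30A level in the control and 22.8% in sh_#7. The 5 neural markers summed to 130.4 FPKM in sh_Neg, 115.8 FPKM in sh_#2 and 87.9 FPKM in sh_#7, nearly all of it TUBB3. Among the others, RBFOX3 was at 0.0174 FPKM or listed at 0, SNAP25 and GFAP were at or below 0.103 FPKM in each library, and the synaptic vesicle gene SYP was at 2.64 FPKM in sh_Neg, 1.64 FPKM in sh_#2 and 0.532 FPKM in sh_#7.

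SLC30A10, which exports manganese from hepatocytes, was at 3.78 FPKM in sh_Neg, 7.26 FPKM in sh_#2 and 1.93 FPKM in sh_#7. It was the one transporter whose lines lay far from the control on opposite sides, at 1.92-fold (1.67 to 2.21) in sh_#2 and 51.1% (41.9 to 62.3) in sh_#7. The level in sh_#7 was 26.6% of that in sh_#2 (22.2 to 31.9).

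The other compared SLC30A genes differed less from the control in sh_#7. SLC30A5 and SLC30A6, which pair to carry zinc into the early secretory pathway, were at 19.8 and 7.18 FPKM in sh_Neg, 20.5 and 6.55 FPKM in sh_#2, and 17.7 and 8.99 FPKM in sh_#7. SLC30A5 did not differ from the control beyond counting error in either line (0.893 in sh_#7, 0.778 to 1.03, and 1.03 in sh_#2, 0.904 to 1.18, the latter turning direction under either other scaling), and SLC30A6 was at 1.25-fold (1.13 to 1.38) in sh_#7. SLC30A7 of the Golgi was at 1.73, 2.01 and 1.97 FPKM in the same order of libraries, with intervals of the ratio to the control of 0.861 to 1.55 in sh_#2 and 0.837 to 1.52 in sh_#7. SLC30A9, a mitochondrial zinc exporter, was at 23.1 FPKM in sh_Neg, 18.5 FPKM in sh_#2 and 26.8 FPKM in sh_#7, so that sh_#2 was lowest. SLC30A4 was at about 0.005 FPKM in each library, and SLC30A2 and SLC30A8 were listed at 0.

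**Figure D4:**
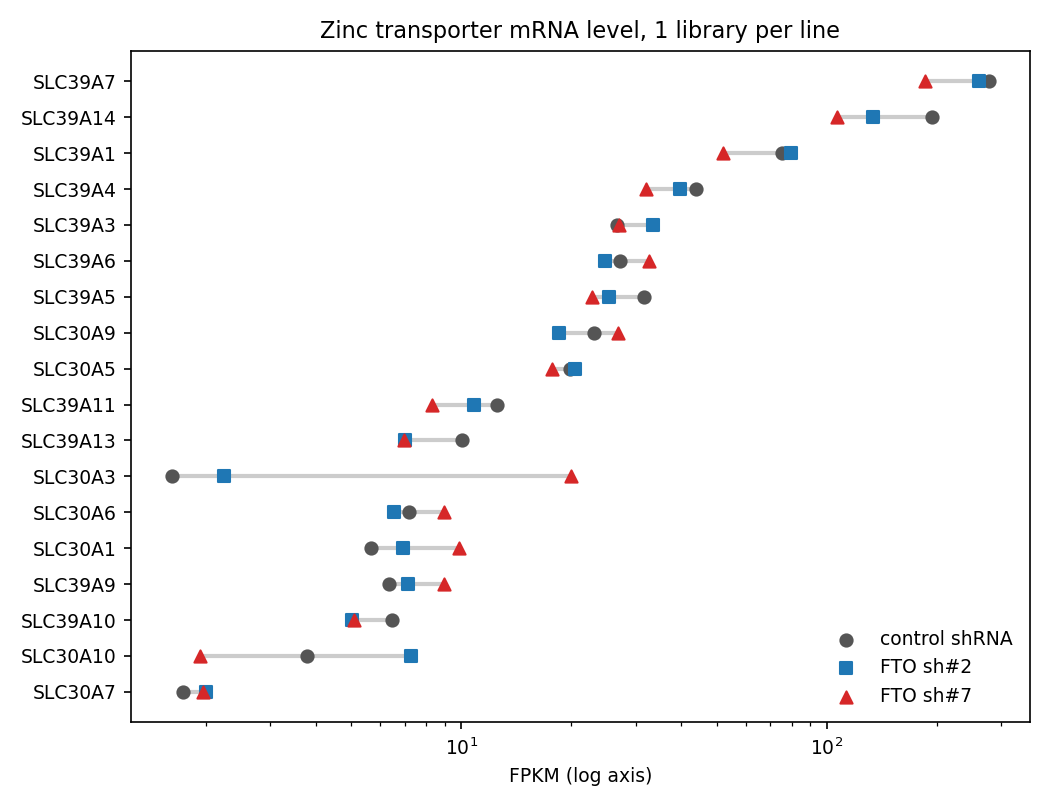
FPKM of the 18 compared zinc transporter genes on a log axis, ordered by mean level, with 1 point per library (grey circle sh_Neg, blue square sh_#2, red triangle sh_#7). SLC30A3 spans 1.62 to 19.9 FPKM, and for SLC39A14 and SLC39A7 at the top sh_#7 is the lowest point.

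The SLC39A importers were on the whole lower. Their summed level over 11 compared genes was 711 FPKM in sh_Neg, 627 FPKM in sh_#2 and 488 FPKM in sh_#7. Their median difference, taken against that of all genes, was -0.25 in sh_#2 and -0.61 in sh_#7, and 9 of 11 lay below the all-gene median in each line. No single member reached 2-fold, though SLC39A14 passed it in sh_#7 with median-of-ratios scaling, at -1.04.

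SLC39A14, the ZIP14 protein that takes zinc, manganese and iron into hepatocytes, was at 193 FPKM in sh_Neg, 133.5 FPKM in sh_#2 and 107 FPKM in sh_#7. It was at 69.1% (67.3 to 70.9) of the control in sh_#2 and at 55.2% (53.6 to 56.8) in sh_#7, the lowest share of any importer in sh_#7. SLC39A7, the ZIP7 protein that releases zinc from the endoplasmic reticulum, was at 277 FPKM in sh_Neg, 261 FPKM in sh_#2 and 185 FPKM in sh_#7. It was at 94.1% of the control in sh_#2 (92.4 to 95.7) and 66.9% in sh_#7 (65.6 to 68.2). These genes held 27.2% and 39.0% of the summed SLC39A level in the control, so most of the lower sum lies in them.

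SLC39A1, an importer of the plasma membrane found in most cells, was at 75.5 FPKM in sh_Neg, 79.8 FPKM in sh_#2 and 52.0 FPKM in sh_#7. Here sh_#2 was at 106% of the control, a direction that turned under either other scaling, and sh_#7 stood lower, at 68.8% (66.2 to 71.5). SLC39A4, the importer of the intestine that is mutated in acrodermatitis enteropathica, was at 43.9 FPKM in sh_Neg, 39.7 FPKM in sh_#2 and 32.1 FPKM in sh_#7. SLC39A5, which sits in the basolateral membrane of polarised cells, was at 31.5, 25.3 and 22.8 FPKM in that order. Both were lowest in sh_#7, at 73.0% (69.6 to 76.6) and 72.3% (68.1 to 76.7) of the control.

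SLC39A11 was at 12.5 FPKM in sh_Neg, 10.8 FPKM in sh_#2 and 8.32 FPKM in sh_#7. SLC39A13, which releases zinc from vesicles and the Golgi, was at 10.1 FPKM in sh_Neg and at 7.00 and 6.96 FPKM in sh_#2 and sh_#7. SLC39A10, a partner of SLC39A6, was at 6.47 FPKM in sh_Neg and at 5.01 and 5.10 FPKM in the knockdown lines. For SLC39A13 and SLC39A10, both lines were lower than the control by nearly the same amount, and they did not differ from each other beyond counting error (ratios of sh_#7 to sh_#2 of 0.994, 0.817 to 1.21, and 1.02, 0.940 to 1.10).

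The other 3 compared importers were not lower in sh_#7. SLC39A6 was at 27.1 FPKM in sh_Neg, 24.7 FPKM in sh_#2 and 32.6 FPKM in sh_#7. SLC39A9 of the Golgi was at 6.33, 7.15 and 8.96 FPKM in that order. SLC39A3, another importer of the plasma membrane, was at 26.6 FPKM in sh_Neg, 33.4 FPKM in sh_#2 and 27.0 FPKM in sh_#7, so that sh_#2 was highest and sh_#7 was within counting error of the control. For SLC39A6 and SLC39A9 the difference in sh_#7, 0.26 and 0.44, was close to or above the median of all genes. SLC39A8 was at 0.205 FPKM in sh_Neg, 0.254 FPKM in sh_#2 and 0.345 FPKM in sh_#7, too low to be compared. SLC39A2 was at 0.0176 FPKM in sh_#7 and otherwise listed at 0, as was SLC39A12 in all libraries.

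Other genes of metal handling were taken from 6 lists with 53 genes, of which 46 could be compared. In sh_#7 against the control 5 of the 46 were called higher and 4 lower, beside 2.35% and 2.48% of all compared genes. In sh_#2 0 were called higher and 2 lower, beside 0.506% and 0.723%. In sh_#7 against sh_#2, 2 were higher and 3 lower, beside 1.45% and 1.52%. The counts include ALPL, compared because of its sh_#7 level, and NT5E, compared because of its sh_Neg level. For the counts by list that follow, the shares of all genes in sh_#7 are again 2.35% higher and 2.48% lower.

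Of 8 regulators of metallothionein transcription, 1 was called higher in sh_#7, and 8 of 8 lay above the median of all genes there. MTF1, the zinc sensor, was at 1.67 FPKM in sh_Neg, 1.76 FPKM in sh_#2 and 2.79 FPKM in sh_#7, or 166% of the control in sh_#7 (150.5% to 184%). NR3C1, the glucocorticoid receptor, whose ligands induce metallothioneins, was at 4.13 FPKM in sh_Neg, 5.99 FPKM in sh_#2 and 14.5 FPKM in sh_#7, or 3.51-fold (3.17 to 3.90) in sh_#7. The interleukin-6 signalling genes IL6ST and STAT3 were at 16.2 and 41.2 FPKM in sh_Neg, 19.2 and 49.2 FPKM in sh_#2, and 28.3 and 54.9 FPKM in sh_#7. EP300, a coactivator, was at 12.1, 14.2 and 17.7 FPKM in that order. In each of these, sh_#7 was the highest library and sh_Neg the lowest, as in 37.9% of all compared genes.

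Of 7 other genes reported as MTF1 targets, 1 was called higher and 1 lower in sh_#7, with a list median 0.06 below that of all genes on the log2 scale. CEBPA, a hepatocyte transcription factor, was at 35.5 FPKM in sh_Neg, 71.9 FPKM in sh_#2 and 121 FPKM in sh_#7. C11orf31, which encodes selenoprotein H, was at 20.7 FPKM in sh_Neg, 31.7 FPKM in sh_#2 and 3.97 FPKM in sh_#7, without an interval because no transcript of that name was found. NDRG1 was at 139.9 FPKM in sh_Neg, 74.8 FPKM in sh_#2 and 88.7 FPKM in sh_#7, CSRP1 at 38.9, 43.8 and 62.7 FPKM, and the glutathione synthesis gene GCLC at 27.2, 30.2 and 35.3 FPKM. In sh_#7 these targets lay on both sides of the control.

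Of 5 compared enzymes that receive zinc in the secretory pathway, 1 was called higher and 2 lower in sh_#7. ALPL, the tissue-nonspecific alkaline phosphatase loaded by SLC30A5, SLC30A6 and SLC30A7, was at 0.241 FPKM in sh_Neg, 0.360 FPKM in sh_#2 and 2.96 FPKM in sh_#7, and it too was compared because of its sh_#7 level. NT5E, which makes adenosine at the cell surface, was at 3.79 FPKM in sh_Neg and at 0.469 and 0.475 FPKM in sh_#2 and sh_#7. NT5E was compared only because of its sh_Neg level, so that it had to differ. CA9, a carbonic anhydrase of the cell surface induced by hypoxia, was at 42.8 FPKM in sh_Neg, 25.9 FPKM in sh_#2 and 17.8 FPKM in sh_#7. ENPP1 and ENPP3, ectonucleotidases, were at 13.8 and 10.4 FPKM in sh_Neg, 11.8 and 11.7 FPKM in sh_#2, and 7.57 and 4.98 FPKM in sh_#7. Apart from ALPL, sh_#7 was below the control in each.

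Of 15 compared copper genes, 1 was called higher and 1 lower in sh_#7. CP, which encodes the plasma copper protein ceruloplasmin, was at 175 FPKM in sh_Neg, 43.1 FPKM in sh_#2 and 14.9 FPKM in sh_#7. STEAP3, a metalloreductase, was at 10.7 FPKM in sh_Neg, 14.5 FPKM in sh_#2 and 25.7 FPKM in sh_#7. The others stayed within 2-fold, with the superoxide dismutase gene SOD1 at 440.2, 472 and 447 FPKM, COX11 at 160.4, 152 and 117 FPKM and COX17 at 66.3, 83.3 and 76.3 FPKM in the order sh_Neg, sh_#2, sh_#7. The summed hepatocyte marker level given above was also highest in sh_Neg and lowest in sh_#7, although 4 of the 10 markers lay slightly above the control in sh_#2, and its part in the CP values was not tested.

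Of 8 compared heat shock and metal stress genes, 8 lay above the median of all genes in sh_#7 and 4 in sh_#2, and 1 was called higher in sh_#7. DNAJB1, a co-chaperone, was at 61.7 FPKM in sh_Neg, 79.5 FPKM in sh_#2 and 129 FPKM in sh_#7. The chaperone genes HSPB1, HSPH1 and HSPA8 were at 171, 39.99 and 571 FPKM in sh_Neg, 203, 53.9 and 709 FPKM in sh_#2, and 289, 75.6 and 651 FPKM in sh_#7. The list median relative to all genes was 0.49 in sh_#7 and 0.07 in sh_#2, beside 0.37 and 0.07 for the metallothioneins. Of 3 compared carriers that can also move zinc, 0 were called, with SLC11A2 at 25.4, 26.3 and 19.7 FPKM, MCOLN1 at 3.74, 4.82 and 5.52 FPKM and TRPM7 at 3.13, 4.13 and 5.12 FPKM in the order sh_Neg, sh_#2, sh_#7.

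**Figure D5:**
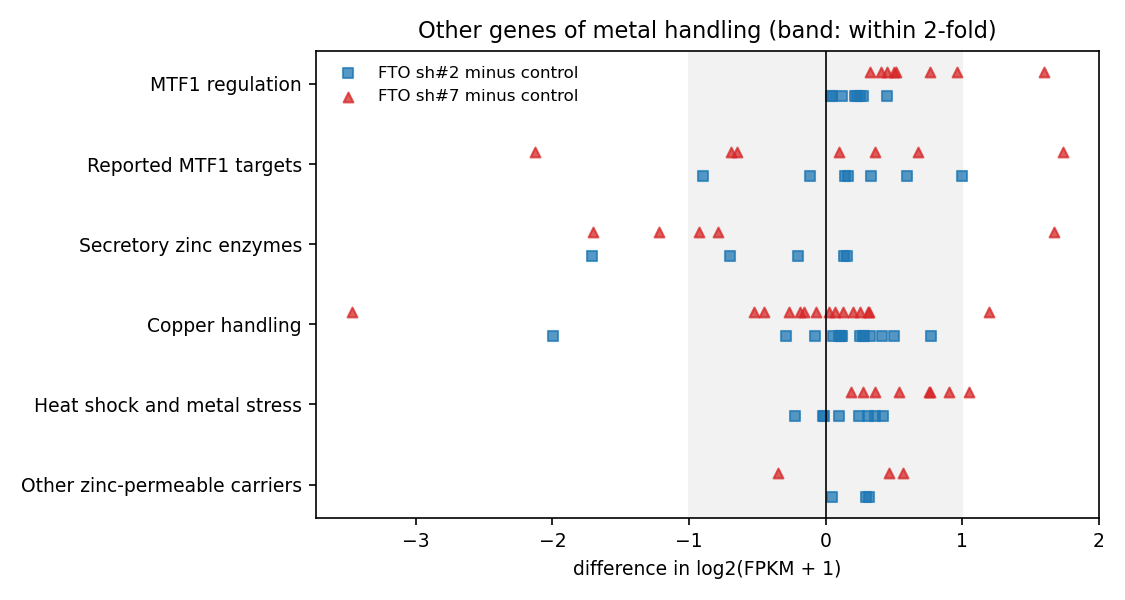
Difference from the control library in log2(FPKM + 1) for the 46 compared genes of the 6 metal handling lists, with 1 point per gene and line (blue square sh_#2, red triangle sh_#7) and a grey band for differences within 2-fold. All 8 regulators and all 8 heat shock genes lie to the right of 0 in sh_#7, and CP is the point furthest to the left in both lines.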

How the data were processed

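The authors deposited FPKM values for each gene in each library. The submitters' processing notes name Cufflinks 2.2.1, HTSeq, STAR 2.4.0j and the build hg19, without their order or role. Because FPKM is scaled to the total, abundant genes affect the rest: the top 100 genes took 34.7% of the summed FPKM in sh_Neg, 31.3% in sh_#2 and 29.0% in sh_#7.

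Differences are log2(FPKM + 1) of 1 library minus another, folds are ratios of FPKM without a pseudocount, and both used genes averaging 1 FPKM or more. No count model and no test was used, since FPKM is no count and each group holds 1 library.

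Fragment numbers were estimated from low values. In genes with a single GENCODE 29 transcript of at least 600 nt, depth and a length offset of 210 nt were chosen so that most low values came out as whole fragments. Of 209 to 264 low values (up to 6 fragments) per library, 58.0% to 60.3% were within 0.05 of a whole number, so depth is approximate. For each gene the shortest annotated transcript longer than the offset by at least 100 nt was used (for genes other than metallothioneins, among basic protein-coding transcripts), which widens the intervals. These 95% intervals cover counting error only.

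Every gene of the rule was named, with all 3 values where the mean reached 1 FPKM; from the lists, MTF1, each gene past 2-fold in a line against the control and up to 3 more of highest mean were named. Members and lists were chosen with earlier results of these data known; the neighbour genes, MT3, MT4 and the sum without MT2A were looked at after seeing the values. Promoters and gene order came from RefSeq (GRCh38.p14), used for sequence and neighbours only. Alternatives were a pseudocount of 0.1, a minimum of 5 FPKM or none, 2 scalings, 1.5-fold and leaving out pseudogenes. The calculation was tested on simulated data. Python 3.11.15 with pandas 2.3.3, numpy 2.4.6 and scipy 1.17.1 was used.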

Additional observations from a re-analysis of the deposited data

Results flagged for a closer look

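SLC30A10 was picked out because the knockdown lines lay on opposite sides of the control by at least 1.5-fold each, a difference that was not tested. On the log2(FPKM + 1) scale it differed from the control by -0.71 in sh_#7 and 0.79 in sh_#2, on about 305 estimated fragments in the control, 593 in sh_#2 and 154 in sh_#7. No other gene of the 25 compared met this rule.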

How the results depend on the processing

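No paired analysis was possible because there is 1 library in every group, which also left no replicate to omit. Counts of 5 or fewer move easily. For sh_#7 against the control, the summed metallothionein difference was 0.46 with median-of-ratios scaling, 0.53 with upper-quartile scaling and 0.88 without MT2A; for sh_#2 it was 0.095, 0.11 and -0.021, and for sh_#7 against sh_#2 0.37 with median-of-ratios scaling and 0.90 without MT2A. The scalings follow the median of all genes, which moved from 0.16 to -0.01 and 0.06 in sh_#7. Median-of-ratios scaling gave 1 gene of the families lower in sh_#7 (SLC39A14), and MT1M fell short of 2-fold there at a difference of 0.93. A pseudocount of 0.1 gave 1 family gene lower in sh_#2 and 1 list gene higher. At a minimum of 5 FPKM, which leaves out MT1A, MT1M, SLC30A7 and SLC30A10, 0 family genes were lower in sh_#7 than sh_#2, 1 list gene was lower in sh_#2 and 1 was higher in sh_#7 than sh_#2, and the relative SLC30A median was 0.14 in sh_#7 and turned from 0.04 to -0.063 in sh_#2, since fewer genes were compared. Without a minimum, which adds genes at 0, relative medians were 0.0011 for metallothioneins and -0.37 for SLC39A in sh_#7, -0.11 for SLC39A in sh_#2, and 0.00 for SLC30A and -0.077 for SLC39A between the lines. At 1.5-fold, family counts were 2 lower in sh_#7, 2 higher and 1 lower in sh_#2, and 5 higher and 2 lower in sh_#7 against sh_#2. List counts were 11 higher and 8 lower in sh_#7, 3 and 4 in sh_#2, and 8 higher between the lines. The shares of all genes higher and lower at that size were 9.61% and 6.18% in sh_#7, 2.67% and 2.72% in sh_#2, and 5.14% and 4.55% between the lines. The other 128 of 159 summary values stayed within their counting interval or within 1.5 times. Of 363 values of single genes, 47 left their counting interval, with 27 from median-of-ratios scaling and 17 from upper-quartile scaling. No called gene reversed. Small differences that changed sign under a scaling were those of SLC30A7 and SLC39A3 in sh_#7, of MT1E, SLC30A5 and SLC39A1 in sh_#2 and of SLC39A10 between the lines. Counting depth limits MT1A, MT1M and SLC30A7 most.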
